A study of Rattus norvegicus with 12 samples.

Results

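Cultures of neural stem cells (NSCs) that had been differentiated were compared between their tissues of origin, spinal cord minus brain. The comparison rests on 6 of the series' 12 arrays, the 3 titled SNSCfenhua and the 3 titled BNSCfenhua, taken by their titles. The cells of both groups came from Sprague Dawley rat pups aged 3 to 5 days, and no group carried a transgene, a deletion or a named agent. The groups shared the differentiated state ("fenhua" is the romanised Chinese word for differentiation) and, by label, differed in tissue only. The labels give neither the medium nor the length of differentiation, name no sorting step, and do not say whether replicate arrays hold RNA of different cultures or animals. The p-values therefore measure the spread between arrays, which may be technical. That spread was estimated from all 12 arrays, the proliferative ones included, so it can exceed the spread within the groups compared.

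RNA was hybridised to Affymetrix Rat230_2 arrays, which read each transcript through probe sets, clusters of short oligonucleotides placed near its 3' end. Levels are the deposited log2 signals, in which a step of 1 is a 2-fold change of signal. Signals of different probe sets were not compared with each other. On these 6 arrays the median signal was 7.03 to 7.19. Across the 20834 probe sets tested the arrays correlated at r = 0.968 to 0.975 within brain, at 0.963 to 0.968 within spinal cord and at 0.782 to 0.793 between tissues, where probe sets are not independent replicates. The 3' minus 5' log2 signal of beta-actin, a sign of RNA quality, was 0.73 to 0.81 on the brain arrays and 0.99 to 1.01 on the spinal cord arrays without overlap; its part in the results was not tested. That of Gapdh ranged from -0.13 to 0.07 and from -0.08 to 0.06. A signal under an array's own 40th percentile, which lay between 6.08 and 6.39 on these arrays, is called dim. Dim values spread widely and have no reliable order, so folds were computed after raising them to that percentile. Such a fold is written as "at least". A group is dim for a gene where all 3 of its arrays were.

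NSCs divide in culture and, when differentiated, give neurons, astrocytes and oligodendrocytes. Cells of the spinal cord keep a positional code of Hox transcription factors, which are set in the embryo along the body axis, whereas forebrain cells are patterned by factors such as Lhx2 and Emx2. Postnatal tissue also holds microglia, vessel cells and the fibroblasts of the meninges, and any of these can enter a culture.

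The tissues differed across a large part of the array. Of 20834 probe sets tested, 3856 (18.5%) were higher and 4761 (22.9%) lower in spinal cord cultures with limma at an adjusted p under 0.05. Taking 1 probe set per gene, 2501 of 11218 genes (22.3%) were higher and 2512 (22.4%) lower, and 1167 and 1134 of them differed by at least 2-fold (20.5% of genes in either direction). The median difference over those 11218 genes was 0.00 on the log2 scale. Values of the 3 arrays of each group did not overlap for 31.0% of genes in the higher and 30.0% in the lower direction. The shares of 22.3% and 22.4% are the background for each list count that follows, and no list was tested as a set. The 38 lists hold 1258 names, some in more than 1 list, of which 1048 had a probe set and 918 passed the filter on low values. The filter counted all 12 arrays, and some members passed it only through the arrays of 1 tissue, differentiated or proliferative. A difference in that tissue's favour was part of why such a member was tested, so its call carries little weight; their number is given with each list that holds any.

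The 12 genes with the largest excess in spinal cord cultures were mostly matrix genes. Decorin (Dcn), a small leucine-rich proteoglycan that binds collagen fibrils, had signals of 5.18, 1.79 and 4.16 on the brain arrays and 14.37, 14.23 and 14.11 on the spinal cord arrays. It was dim on every brain array and near the top of the range in spinal cord, at least 245-fold higher (adjusted p = 1.16e-08). Lumican (Lum), a related proteoglycan, measured 3.39, 3.74 and 3.88 in brain and 13.65, 13.46 and 13.66 in spinal cord, at least 156-fold higher. Lox, the enzyme that crosslinks collagen, measured 5.59, 5.79 and 5.80 in brain and 13.93, 13.90 and 13.76 in spinal cord, at least 189-fold higher. In each of these the groups were far apart and the arrays of a group lay close together wherever the signal was bright. Col1a1, the alpha 1 chain of type I collagen, was 6.60, 6.41 and 6.56 in brain and 13.81, 13.74 and 13.68 in spinal cord, a difference of 149-fold (log2 difference 7.22, SE 0.32, adjusted p = 1.63e-09). Col3a1, the fibril chain that accompanies it, was 7.87, 7.10 and 7.71 in brain and 14.87, 14.74 and 14.57 in spinal cord, or 144-fold higher. Col8a1 and Pcolce, which speeds the trimming of procollagen, were at least 96.2-fold and at least 87.8-fold higher, as was Sned1, another matrix protein (at least 180-fold). The other 4 were not structural matrix genes. Pla2g2a, a secreted phospholipase, and Lbp, the acute phase protein that binds bacterial lipopolysaccharide, were both at least 154-fold higher. Colec12, a scavenger receptor, was at least 102-fold higher, and Gjb2, connexin 26, went from 6.49, 6.95 and 6.76 to 13.90, 13.75 and 13.69 (132-fold). Lox, Sned1, Lum, Pla2g2a, Lbp, Colec12, Col8a1 and Pcolce had too few brain arrays above the 40th percentile to be tested on those alone. Their place in the test rested on spinal cord arrays, differentiated or proliferative, so these calls carry little weight.

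**Figure D1:**
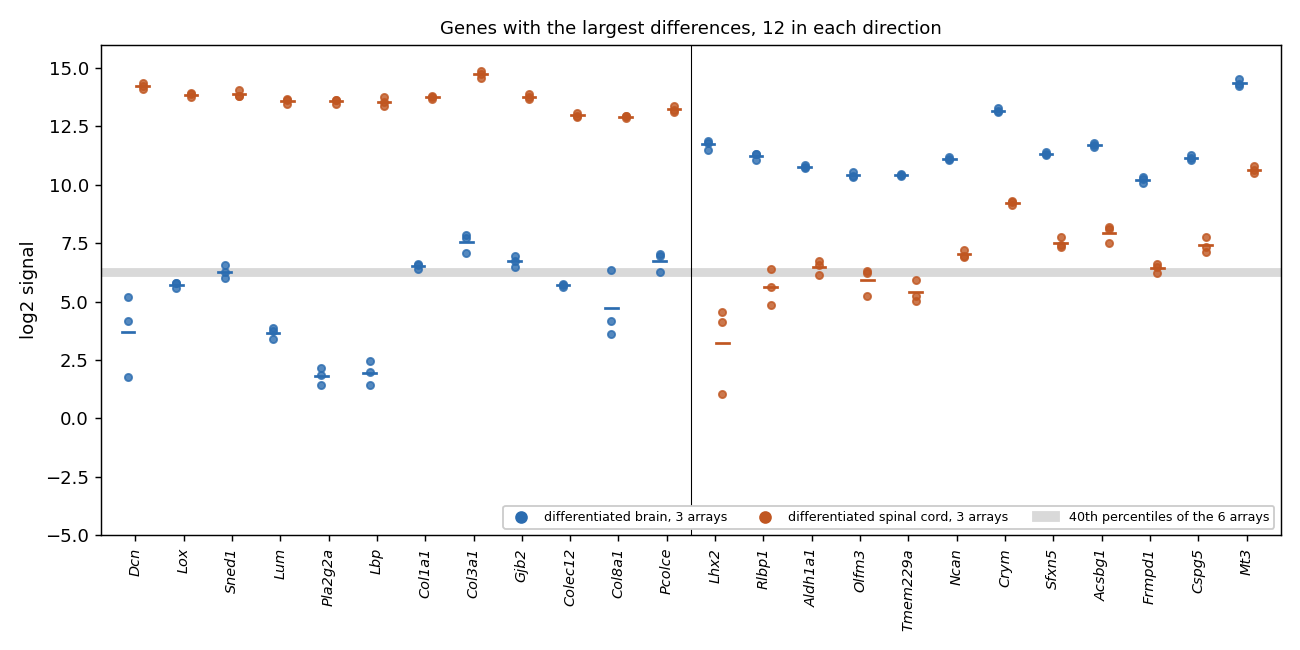
Log2 signal (vertical axis) of the 24 genes with the largest differences, 12 higher (left) and 12 lower (right) in differentiated spinal cord cultures. Points are single arrays, 3 per group, bars are group means and the grey band spans the 40th percentiles of the 6 arrays, below which values are dim; Dcn lies between 14.11 and 14.37 on spinal cord arrays and under the band on brain arrays.

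Among the 12 genes with the largest deficit were a forebrain factor and several genes of astrocytes and brain matrix. Lhx2, a LIM homeobox factor of the forebrain, was 11.50, 11.81 and 11.87 on the brain arrays and 1.05, 4.57 and 4.11 on the spinal cord arrays, at least 44.2-fold lower in spinal cord (adjusted p = 8.42e-07). It was bright on every brain array and dim on every spinal cord array. Rlbp1, a retinaldehyde-binding protein, measured 11.07, 11.32 and 11.34 in brain against 5.62, 6.41 and 4.86 in spinal cord (at least 31.4-fold lower). Aldh1a1, which makes retinoic acid, measured 10.85, 10.72 and 10.77 in brain and 6.13, 6.57 and 6.74 in spinal cord (19.7-fold lower). Neither pair of groups overlapped. Neurocan (Ncan), a proteoglycan of the brain matrix, was 11.12, 11.05 and 11.20 in brain and 6.95, 7.21 and 6.90 in spinal cord, 17.2-fold lower (log2 difference -4.10, SE 0.17, adjusted p = 8.3e-10). Mt3, the metallothionein of brain, was 14.51, 14.22 and 14.32 in brain and 10.52, 10.65 and 10.79 in spinal cord, 13-fold lower but still bright in spinal cord. Crym, a binding protein of thyroid hormone, was 15.4-fold lower, Sfxn5, a mitochondrial carrier of the sideroflexin family, 14-fold, Acsbg1, an acyl-CoA synthetase of astrocytes, 13.7-fold, and Cspg5, a proteoglycan of precursors and astrocytes, 13.4-fold. Olfm3 and Tmem229a were each at least 17.8-fold lower, and Frmpd1 at least 13.6-fold. A second probe set of Tmem229a, with means of 7.40 in brain and 7.08 in spinal cord, was not called (adjusted p = 0.456). Lhx2, Olfm3 and Tmem229a passed the filter only through brain arrays, differentiated or proliferative, so their calls carry little weight.

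Positional identity was addressed first through the Hox genes. Of 39 listed, 22 had a probe set and 19 passed the filter, of which 18 were higher in spinal cord, 0 lower and 1 not called (percent called over all genes, 22.3). Each of the 19 owed its place in the test to spinal cord arrays alone, differentiated or proliferative, which favours a higher signal there; the count is a description and supports nothing. The remaining 3, Hoxd1, Hoxb13 and Hoxd11, were dim in both groups. Hoxa5 was the most different: 2.38, 4.52 and 0.13 on the brain arrays and 12.03, 12.02 and 11.85 on the spinal cord arrays, at least 50.9-fold higher. Hoxd8 measured 5.73, 4.66 and 4.83 in brain and 10.51, 10.50 and 10.23 in spinal cord (at least 17.3-fold higher), and Hoxa9 1.47, 0.39 and -0.57 in brain and 10.01, 9.98 and 10.18 in spinal cord (at least 13.6-fold higher). For all 3 the brain arrays were dim and the spinal cord arrays lay close together. Hoxc5 and Hoxb2 were at least 12-fold and at least 11.6-fold higher. By paralogue group, which follows the order of expression from hindbrain to tail, the 6 genes tested of groups 1 to 4 and the 10 of groups 5 to 9 were called, as were 2 of 3 of groups 10 to 13. These were Hoxa10 at 7.53, 8.25 and 8.56 and Hoxd10 at 7.63, 7.94 and 8.08 on spinal cord arrays. Hoxa11, the third, was 6.24, 5.98 and 5.25 in brain and 5.35, 6.48 and 6.88 in spinal cord and overlapped (adjusted p = 0.483).

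Factors of the forebrain and midbrain were mostly lower or dim. Of 43 listed, 27 had a probe set and 13 passed the filter, 7 of them only through brain arrays. In spinal cord 7 were lower, 1 higher and 5 not called (background 22.4% lower). Of the 7 lower, only 2 passed other than through brain arrays alone, so the count carries little weight. Emx2, a factor of the dorsal telencephalon, was 9.16, 9.67 and 9.70 in brain and 0.20, 5.08 and 4.15 in spinal cord, at least 9.52-fold lower. Dlx1, a factor of the ventral telencephalon and its inhibitory neurons, was 8.56, 8.81 and 8.13 in brain and 5.20, 5.07 and 5.14 in spinal cord, at least 4.72-fold lower, and Nkx2-1, of the ventral forebrain, at least 1.74-fold lower. These 3 were dim on every spinal cord array, as was Lhx2. The exception was Nr2f2 (COUP-TFII), a nuclear receptor found in many tissues, at 9.95, 10.36 and 10.30 in brain and 12.69, 12.50 and 12.76 in spinal cord, 5.46-fold higher. The other 14 with a probe set did not pass the filter, among them Six3, Otx2 and Tbr1. Markers of the midbrain, En2, Pax2 and Fgf8, were among these 14 too.

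**Figure D2:**
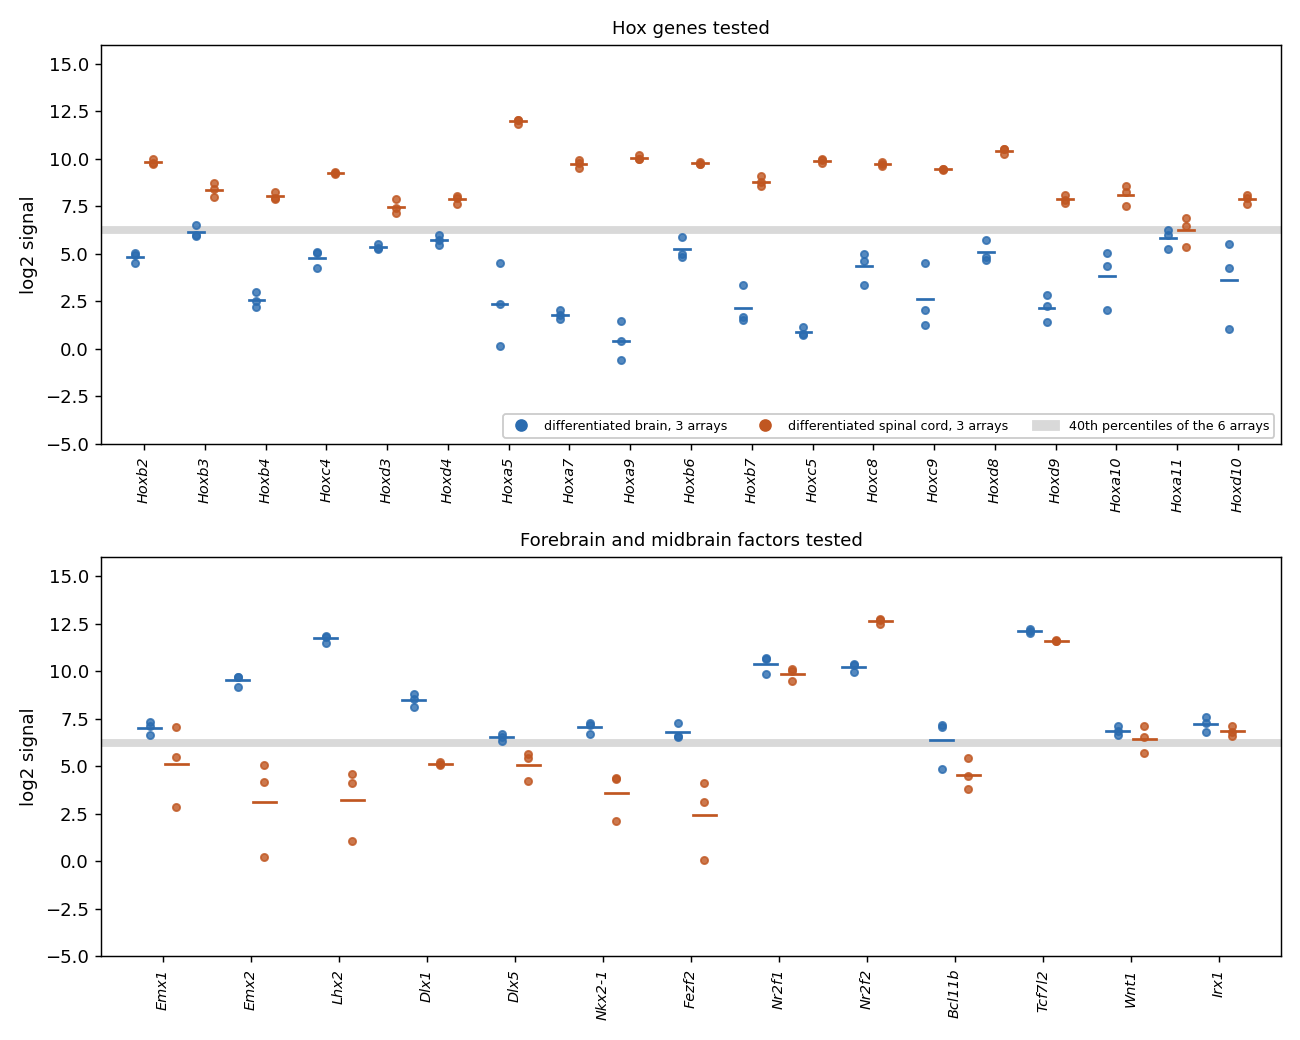
Log2 signal (vertical axis) of the 19 Hox genes (top) and the 13 forebrain and midbrain factors (bottom) that passed the filter. Points are single arrays, 3 per group, bars are means and the grey band spans the 40th percentiles; in the top panel 18 genes are dim on every brain array (Hoxb3 is the exception), and in the bottom panel Emx2 and Lhx2 are bright in brain and dim in spinal cord.

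Hox proteins bind DNA together with TALE cofactors of the Meis, Pbx and Pknox families. Of 14 cofactors, caudal and trunk factors tested (21 listed), 4 were higher in spinal cord, 3 lower and 7 not called, and Pbx4 was the only one dim in a tissue, the spinal cord. Meis2 was 11.04, 11.55 and 11.48 on brain arrays and 9.03, 9.16 and 9.17 on spinal cord arrays, 4.72-fold lower. Meis1, named after its value was seen, was higher by a log2 difference of 0.42 (SE 0.13), a call lost without any 1 of 4 arrays (adjusted p = 0.0503 to 0.0623). Tshz3, a teashirt factor, was 2.78-fold and Pbx2 1.59-fold higher. Without brain replicate 3 or without spinal cord replicate 2 the higher count of 4 went to 2. Factors that pattern the dorsal to ventral axis were higher in 6 and lower in 4 of 14 cases tested (31 listed), 2 of them passing only through spinal cord arrays. Irx3, which is found from midbrain to spinal cord, was 6.07, 5.62 and 6.63 in brain and 9.97, 10.40 and 10.17 in spinal cord, at least 13.8-fold higher. Zic1, Zic2 and Zic4, factors of the dorsal neural tube that meningeal cells also express, were at least 6.91-fold, 4.34-fold and 5.50-fold higher. Pax6, a factor of forebrain radial glia and of the intermediate neural tube, was 10.66, 10.65 and 10.68 in brain and 7.33, 7.18 and 7.42 in spinal cord, 10.2-fold lower.

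The cell composition of the cultures was read from lists of marker genes. In bulk RNA, fewer cells of a type and less RNA per cell cannot be told apart. Connective tissue genes set the groups apart most. Of 47 genes of fibroblasts and meninges, 45 had a probe set and 41 passed the filter; 38 were higher in spinal cord, 2 lower and 1 not called, with a median difference of 4.54, or 2.79 with dim values raised to the percentile. Of the 38, 25 passed the filter with brain arrays as well. The mean signal of the list was 6.79 to 6.89 per array in brain and 11.04 to 11.07 in spinal cord. Each of 11 collagens was higher, Col1a2 at 8.51, 8.41 and 8.44 in brain and 14.20, 14.10 and 13.90 in spinal cord (48.8-fold higher) among them. Ogn, osteoglycin, was 5.76, 5.52 and 5.21 in brain and 12.11, 12.06 and 11.97 in spinal cord, at least 53.8-fold higher. The 2 genes that were lower were Sfrp1, a Wnt inhibitor (log2 difference -2.07), and Thy1, a surface protein also carried by neurons (-2). Foxc2 was the one not called. This shift in connective tissue markers stands beside every result, above and below, that compares the tissues, and its part in them was not tested.

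Vessel and surface cells were read from 3 lists. Of 22 contractile and pericyte genes 15 were tested, 7 higher, 1 lower and 7 not called, with 1 passing only through spinal cord and 1 only through brain arrays. Acta2, smooth muscle actin, was 8.04, 8.56 and 9.33 in brain and 8.01, 8.85 and 8.91 in spinal cord, and Tagln 9.27, 9.69 and 9.52 in brain and 9.32, 9.10 and 8.87 in spinal cord; the groups overlapped for both, with adjusted p = 0.928 and 0.775. Fitted on the 6 differentiated arrays alone, Tagln was lower (adjusted p = 0.0404). Tpm2, a tropomyosin, was at least 11.4-fold, Mylk, myosin light chain kinase, 6.90-fold and Pdgfrb, the PDGF receptor of mural cells and fibroblasts, at least 4.14-fold higher. Another probe set of Tpm2 was dim in both groups and not tested. The pericyte gene Rgs5 was dim on the 6 arrays. Of 20 endothelial genes 18 had a probe set and 9 were tested, 3 higher and 1 lower, with 3 passing only through spinal cord and 2 only through brain arrays. Pecam1, Tek and Cldn5 were dim in both groups. Esm1, a proteoglycan named for endothelium, was 1.59, 0.66 and 1.68 in brain and 11.87, 11.68 and 11.72 in spinal cord, at least 43.9-fold higher. All 3 endothelial genes that were higher, Esm1 among them, passed only through spinal cord arrays. The marker Kdr was called lower (log2 difference -1.66, adjusted p = 0.0245). Its call was lost with dim values raised (-0.23, adjusted p = 0.34) and without any 1 of 4 arrays (adjusted p = 0.0605 to 0.137). Epithelial and choroid plexus genes had 4 higher and 1 lower of 12 tested (24 listed); 2 passed only through spinal cord and 1 only through brain arrays. Of the epithelial genes, Cdh1 (E-cadherin) was 1.85, -0.02 and 0.56 in brain and 10.38, 10.29 and 10.56 in spinal cord, at least 17.3-fold higher. Only spinal cord arrays brought it past the filter, and a second probe set, with means of 0.52 in brain and 0.80 in spinal cord, was dim in both groups and was not tested. Krt8 was 6.63, 6.88 and 6.92 in brain and 6.35, 6.91 and 6.57 in spinal cord with overlap (adjusted p = 0.684), and Epcam, which also passed only through spinal cord arrays, was called but dim on all 6 arrays, so no fold is given. For choroid plexus, Aqp1, a water channel, was at least 13.2-fold higher and Ttr, the transthyretin of choroid plexus, 8.13, 8.39 and 8.46 in brain and 5.29, 6.67 and 6.56 in spinal cord, at least 3.69-fold lower (adjusted p = 0.0424); the call for Ttr was lost without any 1 of the 6 arrays (adjusted p = 0.0567 to 0.156).

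Astrocyte genes were lower in spinal cord cultures. Of 33 tested (38 listed), 25 were lower, 1 higher and 7 not called (background 22.4% lower), with a median difference of -1.48; 3 of the 33 passed only through brain and 1 only through spinal cord arrays. The mean signal of the list was 11.80 to 11.94 in brain and 10.59 to 10.60 in spinal cord. Gfap, the main filament protein of these cells, was 14.36, 14.20 and 14.36 on brain arrays and 11.32, 11.34 and 11.52 on spinal cord arrays, 7.53-fold lower (log2 difference -2.91, SE 0.32, adjusted p = 6.12e-06). Slc1a3 (GLAST), a glutamate transporter, was 14.13, 14.08 and 14.21 in brain and 11.99, 11.90 and 11.89 in spinal cord, 4.64-fold lower. Of its other probe sets 1 was lower by a log2 difference of -2.70, and a dimmer 1 was higher, with means of 7.21 in brain and 8.12 in spinal cord (adjusted p = 0.00973). Aqp4, the water channel of astrocyte endfeet, was 13.85, 14.04 and 14.04 in brain and 12.85, 12.76 and 12.87 in spinal cord, 2.22-fold lower; of its other probe sets 1 was lower by a log2 difference of -1.60 and 1 not called (adjusted p = 0.128). Mlc1, a membrane protein of the same endfeet, was 10.5-fold lower, Ntrk2, the BDNF receptor TrkB, 9.25-fold, Atp1b2, a sodium pump subunit, 8.29-fold and Ntsr2, a neurotensin receptor, at least 8.30-fold. In spinal cord cultures Gfap, Aqp4 and Slc1a3 were still well above the 40th percentile, each over 11. Gja1, connexin 43, was the gene that was higher, at 14.37, 14.28 and 14.39 in brain and 15.16, 14.91 and 14.69 in spinal cord (log2 difference 0.57, SE 0.16); without spinal cord replicate 1 it was not called (adjusted p = 0.0534). A second probe set of Gja1 was higher by a log2 difference of 2.14, or 4.42-fold (adjusted p = 7.21e-09).

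Genes of the oligodendrocyte lineage were read by stage. Of 14 precursor genes tested (18 listed), 12 were lower in spinal cord, 1 higher and 1 not called. Olig1, a factor of the lineage, was 13.33, 13.27 and 13.32 in brain and 11.30, 11.27 and 11.18 in spinal cord, 4.15-fold lower. Ptprz1, a receptor phosphatase of precursors and radial glia, was 13.52, 13.74 and 13.72 in brain and 11.07, 11.04 and 11.31 in spinal cord, 5.74-fold lower. Sox10, needed for the lineage, was 10.74, 10.55 and 10.46 in brain and 9.35, 9.76 and 9.35 in spinal cord, 2.13-fold lower, with no overlap for these 3. Olig2 was at least 1.90-fold lower and Pcdh15, a protocadherin, at least 3.97-fold. Pdgfra, the PDGF receptor of precursors and also of fibroblasts, was the gene that was higher, at 11.70, 11.77 and 11.79 in brain and 13.75, 13.61 and 13.55 in spinal cord (3.69-fold). For mature oligodendrocytes 22 genes were tested (28 listed, 3 passing only through spinal cord arrays), with 4 higher, 6 lower, 12 not called and a median of -0.17. The count of 6 lower was 10 with the 6 differentiated arrays fitted alone and 4 to 5 without 1 array at a time. Mbp, myelin basic protein, was 14.61, 14.22 and 14.43 in brain and 14.51, 14.36 and 14.27 in spinal cord and overlapped (log2 difference -0.03, SE 0.34, adjusted p = 0.946). Its 2 other probe sets, which did not overlap between tissues, differed by -0.78 and -0.50 and were not called (adjusted p = 0.0917 and 0.277). Cnp, an enzyme of myelin, was 13.88, 13.67 and 13.73 in brain and 13.72, 13.42 and 13.43 in spinal cord (adjusted p = 0.103), though a second probe set was lower by a log2 difference of -0.68 (adjusted p = 0.000398). Mag, a myelin glycoprotein, was 11.98, 11.67 and 11.68 in brain and 11.50, 11.44 and 11.42 in spinal cord (log2 difference -0.32, adjusted p = 0.388; 0.0134 with the 6 differentiated arrays fitted alone). Without spinal cord replicate 1, Cnp was lower (adjusted p = 0.0358). Mog, of the outer myelin surface, was 1.83-fold higher, as were Mal (at least 2.27-fold), Ermn (at least 2.24-fold) and Enpp2, which makes lysophosphatidic acid (2.63-fold). Mal and Ermn, both dim in brain, were tested on the strength of spinal cord arrays alone, differentiated or proliferative. Their calls carry little weight. Plekhb1 was 4.19-fold and Pmp22, a protein of peripheral myelin and other cells, 2.52-fold lower.

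**Figure D3:**
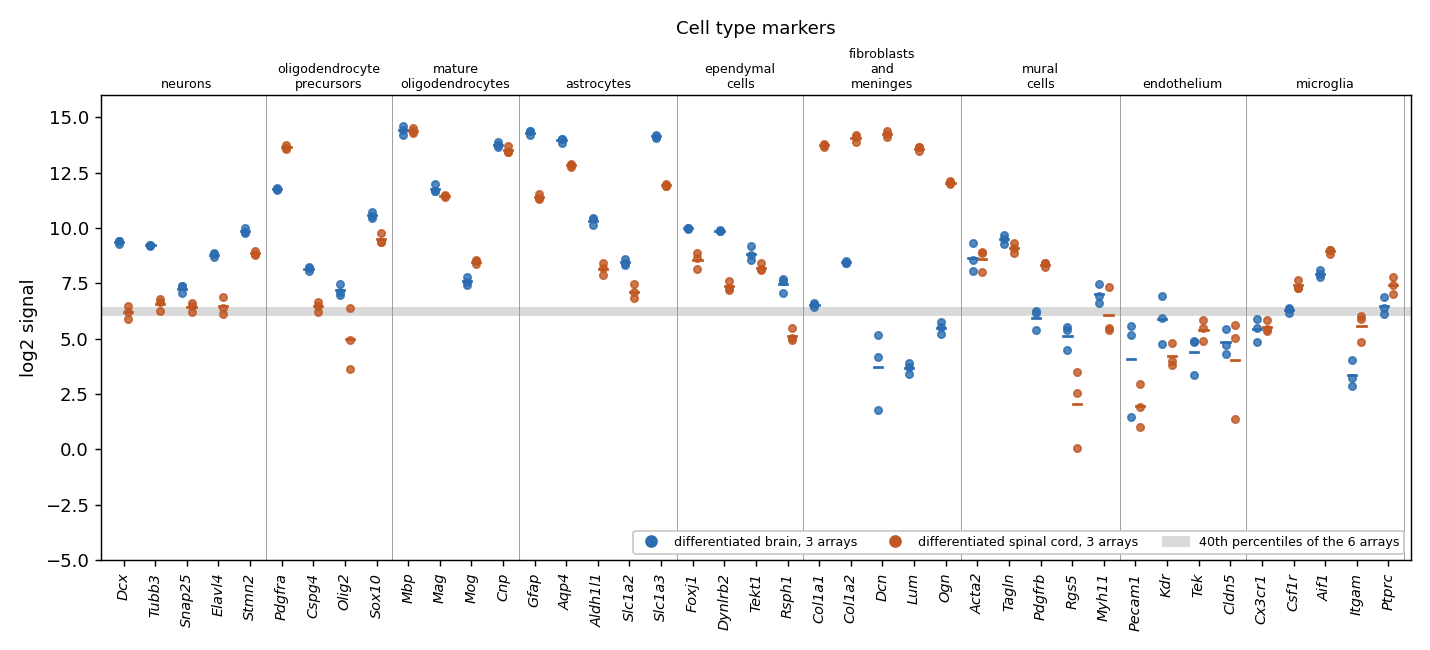
Log2 signal (vertical axis) of marker genes of 9 cell types, grouped by the type they mark. Points are single arrays, 3 per group, bars are means and the grey band spans the 40th percentiles of the 6 arrays; Mbp overlaps between tissues, Gfap is 14.20 to 14.36 in brain and 11.32 to 11.52 in spinal cord, and Pecam1, Tek and Cldn5 lie under the band.

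Neuronal genes were lower in spinal cord cultures in 23 of 38 cases tested (46 listed), 2 were higher and 13 not called; 4 passed only through brain arrays and 1 only through spinal cord arrays. The mean signal of the list was 8.53 to 8.63 in brain and 7.10 to 7.38 in spinal cord. Among genes of young neurons, 10 of 14 were lower and 0 higher. Dcx, doublecortin, was 9.28, 9.42 and 9.40 on brain arrays and 6.22, 5.90 and 6.49 on spinal cord arrays, at least 7.99-fold lower (log2 difference -3.16, SE 0.23, adjusted p = 1.36e-07). Tubb3, neuronal tubulin, was 9.23, 9.25 and 9.20 in brain and 6.67, 6.25 and 6.78 in spinal cord, at least 6.12-fold lower. Sox11, a factor of immature neurons, was at least 11.8-fold lower and Stmn3, which binds tubulin, at least 9.21-fold. Both Dcx and Tubb3 sat near the 40th percentile in spinal cord and clearly above it in brain. Secretory granule proteins were lower as well, Scg3 at 11.22, 11.32 and 11.25 in brain and 7.59, 7.72 and 7.50 in spinal cord (12.7-fold) and Scg2 at 10.10, 10.30 and 10.13 in brain and 7.59, 7.48 and 7.35 in spinal cord (6.52-fold). Snap25, of synaptic vesicle fusion, was low in both, at 7.36, 7.36 and 7.07 in brain and 6.48, 6.19 and 6.60 in spinal cord (at least 1.71-fold lower), a call lost without brain replicate 1, brain replicate 2 or spinal cord replicate 2 (adjusted p = 0.0633 to 0.0798). The 2 genes that were higher were Slc17a6, a vesicular glutamate transporter, and Sst, somatostatin, both dim in brain, with 6.30, 5.60 and 6.17 and 7.85, 8.45 and 7.81 in spinal cord. For Slc17a6 most of the difference lay below the 40th percentile, and with dim values raised it was 0.04 (adjusted p = 0.913).

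Stem and progenitor genes were mostly lower. Of 20 tested (25 listed), 14 were lower in spinal cord, 2 higher and 4 not called, with a median of -1.40; 1 passed only through brain arrays. Sox2, which maintains NSCs, was 13.17, 13.29 and 13.26 in brain and 11.63, 11.53 and 11.73 in spinal cord, 3.06-fold lower (log2 difference -1.61, SE 0.08, adjusted p = 2.7e-09). Nes, nestin, was 10.05, 10.31 and 10.29 in brain and 7.78, 7.95 and 8.13 in spinal cord, 4.81-fold lower. Sox3 was 8.34-fold lower, Id4, an inhibitor of helix-loop-helix factors, 7.02-fold and Cdh2, N-cadherin, 5-fold. Sox2 nonetheless stayed above 11 in spinal cord cultures. The 2 that were higher were Fut4, which makes a surface sugar epitope of stem cells (log2 difference 2.21), and Tead2, a factor of the Hippo pathway (0.46); the call for Tead2 was lost without any 1 of 4 arrays (adjusted p = 0.057 to 0.096). Ependymal and motile cilia genes were lower in 9 of 11 cases (28 listed), 1 was higher and 1 not called; 4 of the 11 passed only through brain and 1 only through spinal cord arrays. Foxj1, the main regulator of motile cilia, was 10, 9.96 and 10 in brain and 8.65, 8.13 and 8.88 in spinal cord, 2.70-fold lower. Dynlrb2, a dynein light chain, was 5.72-fold lower and Rfx3, a factor of ciliated cells, 3.41-fold lower. Tekt2, an axonemal tektin, was at least 3.47-fold higher and is the one that owed its place in the test to spinal cord arrays.

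Cell cycle genes were bright in both tissues and mostly not called. Of 25 mitosis genes tested (28 listed) 21 were not called, 3 were higher and 1 lower, with a median of 0.03. The 3 became 1 without brain replicate 3 or without any 1 spinal cord array. Mki67, which marks cycling cells, was 10.46, 10.74 and 10.79 in brain and 10.50, 10.58 and 10.79 in spinal cord (log2 difference -0.04, SE 0.21, adjusted p = 0.894). Of 28 replication genes tested (32 listed) 24 were not called, 4 were higher and 0 lower, with a median of 0.39. The 4 were Ccne1, cyclin E1 (3.27-fold higher), Tyms, thymidylate synthase (2.59-fold), Rfc3 (1.55-fold) and Prim1, a primase subunit (1.55-fold), whose call was lost without any 1 of the 6 arrays (adjusted p = 0.0528 to 0.0678). With the 6 differentiated arrays fitted alone the higher counts were 6 for mitosis and 15 for replication.

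Microglial and macrophage markers were higher in 11 of 17 cases tested (27 listed), 0 were lower and 6 not called, where the background is 22.3% higher; 6 of the 17 passed only through spinal cord arrays. The mean signal of the list was 6.86 to 7.09 in brain and 8.12 to 8.32 in spinal cord. Lyz2, lysozyme, was 9.48, 9.09 and 9.14 in brain and 11.16, 11.13 and 10.95 in spinal cord, 3.59-fold higher. Cd68, a lysosomal protein of macrophages, was 6.91, 7.09 and 7.33 in brain and 8.71, 8.80 and 8.27 in spinal cord, 2.80-fold higher, and Cd14, a receptor for lipopolysaccharide, 5.93-fold higher. Csf1r, the receptor microglia need to survive, was 6.15, 6.32 and 6.39 in brain and 7.30, 7.67 and 7.29 in spinal cord, at least 2.13-fold higher, though without spinal cord replicate 2 it was not called (adjusted p = 0.0567). Of the other defining genes Cx3cr1 and Itgam were dim in both groups, and Aif1 at 7.91, 8.08 and 7.77 in brain and 9.02, 8.84 and 9.02 in spinal cord and Ptprc at 6.12, 6.40 and 6.90 in brain and 7.42, 7.03 and 7.79 in spinal cord were not called (adjusted p = 0.0933 and 0.132). Neither overlapped between the groups, and with the 6 differentiated arrays fitted alone both were higher (adjusted p = 7.77e-05 and 0.0188). Runx1, which other cells use too, was 7.66-fold higher. Schwann cell and neural crest genes had 1 higher, 2 lower and 6 not called of 9 tested (16 listed); 2 passed only through spinal cord and 1 only through brain arrays. Scn7a, a sodium channel gene, was 11.8-fold lower, and Ngfr, the p75 receptor, which passed only through spinal cord arrays, at least 2.57-fold higher, while Prx and Pmp2 of peripheral myelin were not called (adjusted p = 0.996 and 0.633).

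**Figure D4:**
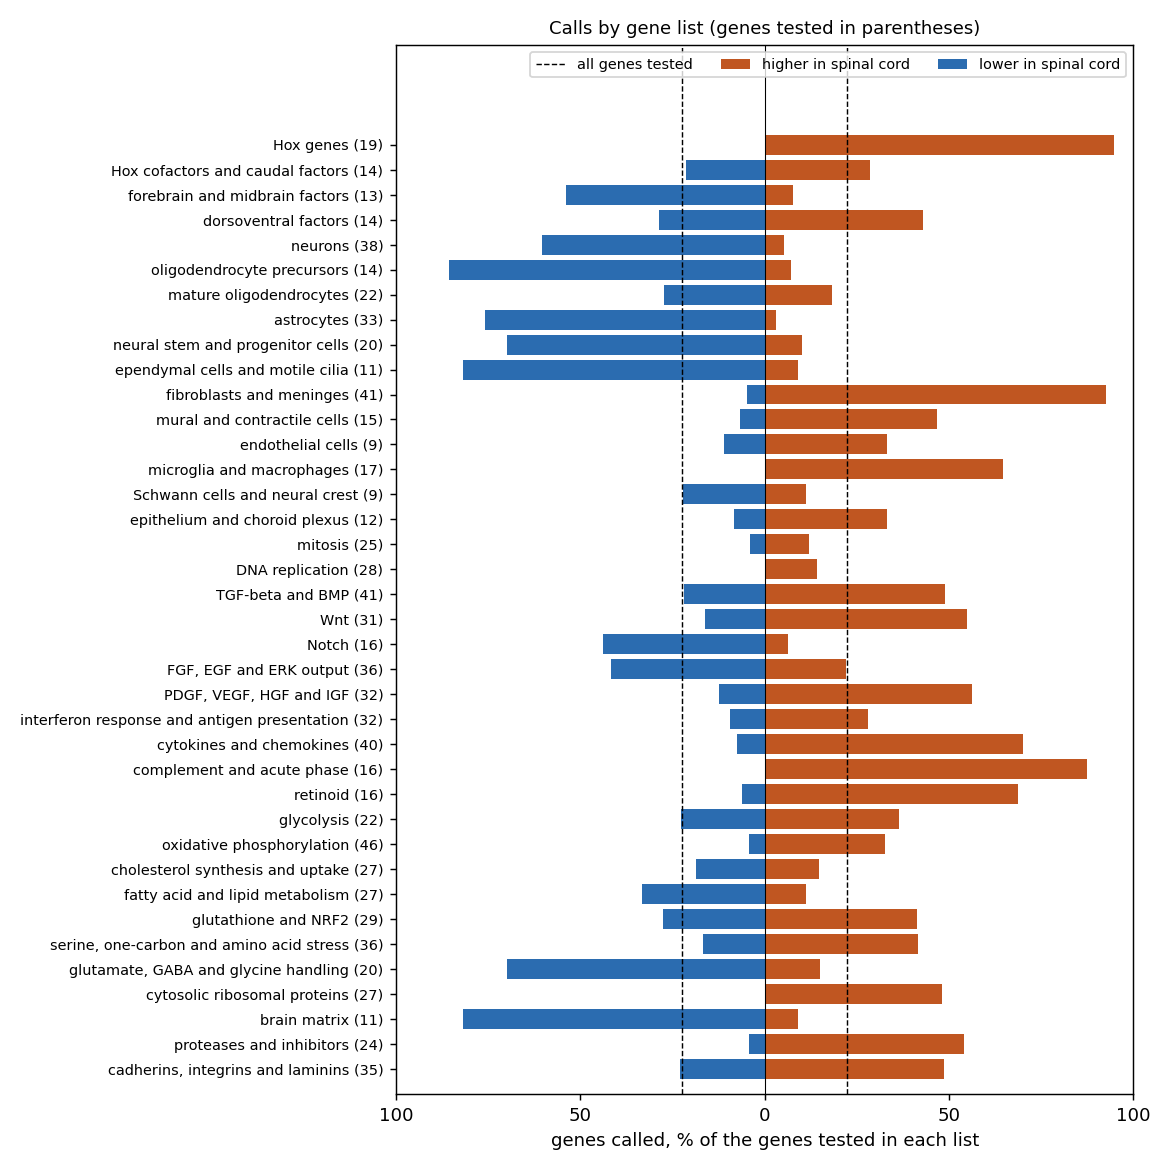
Share of the genes tested in each of 38 lists that were called higher (orange, to the right) or lower (blue, to the left) in differentiated spinal cord cultures, in percent, with the number tested in parentheses. Dashed lines mark the shares over all genes, 22.3% higher and 22.4% lower; Hox, connective tissue and complement lists reach furthest right, and oligodendrocyte precursor, ependymal and brain matrix lists furthest left.

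Matrix genes of the brain were lower, and those of basement membranes mostly higher. Of 11 brain matrix genes tested (16 listed), 9 were lower in spinal cord, 1 higher and 1 not called. Brevican (Bcan), a lectican of perineuronal matrix, was 11.81, 11.78 and 11.68 in brain and 10.24, 9.93 and 10.13 in spinal cord, 3.16-fold lower, and Has2, a hyaluronan synthase, 2.32-fold lower. Versican (Vcan), which connective tissue also makes, was the gene that was higher, by a log2 difference of 0.73 (SE 0.12). The 3 other probe sets of Vcan that were tested were higher by 2.30-, 2.42- and 2.83-fold. Cadherins, integrins and basement membrane genes had 17 higher and 8 lower of 35 tested (45 listed), 6 passing only through spinal cord and 1 only through brain arrays. Laminins and other basement membrane genes were higher in 11 of 14 cases and lower in 2. Lamb1, the laminin beta 1 chain, was 6.78, 5.51 and 5.72 in brain and 12.21, 12.15 and 12.01 in spinal cord, at least 50.4-fold higher. Lama2, an alpha chain, was at least 11.6-fold and Col4a2, a basement membrane collagen, at least 12.6-fold higher. Integrins had 3 higher and 3 lower of 12, and Itgbl1, an integrin-like secreted protein, was 5.14, 0.60 and 2.94 in brain and 10.43, 10.40 and 10.47 in spinal cord, at least 17.5-fold higher. Matrix proteases and inhibitors were higher in 13 of 24 cases tested (27 listed, 2 passing only through spinal cord arrays) and lower in 1. Mmp13, collagenase 3, was 5.17, 2.79 and 4.85 in brain and 11.45, 11.47 and 11.54 in spinal cord, at least 36.5-fold higher. Mmp3, stromelysin, was at least 31-fold, Mmp9, gelatinase B, at least 11-fold and Mmp2, gelatinase A, 7.15-fold higher. The membrane inhibitor Reck was higher too, 8.41-fold, and the gene that was lower was the membrane protease Mmp15 (log2 difference -1.16).

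In TGF-beta and BMP signalling, where ligands act through receptor kinases and SMAD factors and are held back by secreted antagonists, 20 of 41 genes tested were higher, 9 lower and 12 not called; 53 were listed, and 9 of the 41 passed only through spinal cord arrays. Ligands had 7 higher and 3 lower of 13. Bmp7 was 6.70, 6.43 and 6.71 in brain and 9.93, 10.03 and 9.88 in spinal cord, 10.1-fold higher. Antagonists and binding proteins had 5 higher and 1 lower of 9: Ltbp2, which resembles the TGF-beta carriers, was 2.84, 4.78 and 3.42 in brain and 11.02, 10.97 and 10.92 in spinal cord (at least 25.5-fold higher), Grem1, gremlin, at least 11.6-fold and Fstl1 7.96-fold higher. Of these 9, 4 passed only through spinal cord arrays, and just 2 of the 5 higher passed otherwise, so this count carries little weight. Targets were divided, 4 higher and 4 lower of 11. Ccn2 (CTGF), a matricellular target of TGF-beta, was 7.70, 7.29 and 7.26 in brain and 12.05, 11.92 and 12.03 in spinal cord, 23.9-fold higher (log2 difference 4.58, SE 0.51, adjusted p = 7.41e-06). Id4, given above, and its relatives Id1 and Id2, targets of BMP signalling, were lower, Id1 by a log2 difference of -1.40 (SE 0.21) and Id2 by -1.61 (SE 0.14), and Id3 was 12.81, 12.76 and 12.73 in brain and 12.81, 12.74 and 12.74 in spinal cord (adjusted p = 0.994).

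Wnt pathway genes were higher in 17 of 31 cases tested (52 listed, 7 passing only through spinal cord arrays) and lower in 5. Secreted Frizzled-related proteins, which bind Wnts, were split: Sfrp4 was 3.42, 5.86 and 4.09 in brain and 10.87, 10.73 and 10.70 in spinal cord (at least 22.1-fold higher), Sfrp2 8.07-fold higher, and Sfrp1 lower as given above. Another probe set of Sfrp4 was dim in both groups and not tested. Of the ligands, Wnt7a, a Wnt of the neural tube, was 9.92, 9.94 and 9.99 in brain and 5.60, 6.81 and 6.96 in spinal cord, at least 10.1-fold lower, and Wnt16 at least 6.68-fold higher. Receptors had 6 higher and 2 lower of 9, with Fzd6 at least 4.66-fold higher. Targets had 3 higher and 1 lower of 6. Axin2, a general target, was named after its value was seen, at 7.25, 7.04 and 6.61 in brain and 8.13, 8.50 and 7.96 in spinal cord (log2 difference 1.23, adjusted p = 0.00278).

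Notch signalling, in which ligands on a neighbouring cell release a fragment that switches on Hes and Hey repressors, was lower in 7 of 16 genes tested (21 listed, 5 passing only through brain and 1 only through spinal cord arrays) and higher in 1. Targets were lower in 5 of 6 cases and higher in 0. Hey1 was 10.72, 10.79 and 10.83 in brain and 8.11, 8.52 and 8.34 in spinal cord, 5.48-fold lower. Hey2 was 3.60-fold lower, and Nrarp, a feedback inhibitor, at least 3.50-fold lower. Hes1, the sixth, was 8.23, 8.55 and 8.71 in brain and 8.50, 8.19 and 8.87 in spinal cord and was not called (adjusted p = 0.955). Of the receptors Notch1 was 11.08, 11.01 and 11.10 in brain and 9.11, 9.30 and 9.07 in spinal cord, 3.74-fold lower, and of the ligands Dll1 was at least 4.22-fold lower, whereas Jag1 was higher by a log2 difference of 0.65 (SE 0.17).

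FGF and EGF ligands, receptors and ERK targets had 8 higher, 15 lower and 13 not called of 36 tested (44 listed; 4 passed only through spinal cord and 2 only through brain arrays). Receptors were lower in 4 of 7 cases and higher in 0. Fgf13, a member that stays inside the cell, was 3.95-fold lower and Hbegf, a ligand of the EGF receptor, 3.07-fold lower. Feedback inhibitors of ERK went both ways: Spry1 was 7.44, 7.59 and 8.08 in brain and 9.48, 9.59 and 9.65 in spinal cord (3.65-fold higher), and Spry2 11.20, 11.48 and 11.36 in brain and 9.68, 9.30 and 9.64 in spinal cord (3.50-fold lower). Ier3, an early response gene, was 9.16, 9.07 and 9.11 in brain and 12.51, 12.48 and 12.53 in spinal cord, 10.5-fold higher. Of the PDGF, VEGF, HGF, IGF and neurotrophin genes 32 were tested (43 listed), 18 higher and 4 lower, with 4 passing only through spinal cord and 2 only through brain arrays. Ligands of the PDGF, VEGF, HGF, IGF and neurotrophin families were higher in 8 of 13 cases and lower in 0. Igf2 was 7.77, 7.81 and 7.96 in brain and 9.89, 10.03 and 10.11 in spinal cord, 4.48-fold higher, and Igf1 at least 4.30-fold higher, which was not called without brain replicate 3 (adjusted p = 0.0839). The other probe sets of Igf2 were dim in both groups and not tested. Binding proteins of IGFs were higher in 5 of 6 cases, with Igfbp6, which prefers IGF2, at least 11.8-fold and Igfbp4 at least 6.16-fold higher.

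Retinoid genes had 11 higher, 1 lower and 4 not called of 16 tested (22 listed, 3 passing only through spinal cord arrays). Retinoic acid patterns the spinal cord and is made by aldehyde dehydrogenases. Its enzymes differed in opposite directions: Aldh1a2, the enzyme of embryonic spinal cord surroundings and of meninges, was 5.19, 5.96 and 6.38 in brain and 9.07, 9.04 and 8.83 in spinal cord (at least 6.37-fold higher), whereas Aldh1a1 was lower, as given above. Crabp2, which carries retinoic acid to the nucleus, was 7.91, 7.93 and 7.76 in brain and 12.86, 12.91 and 12.84 in spinal cord, 32-fold higher. Stra6, the receptor that takes up retinol, was at least 7.71-fold higher and Dhrs3, which turns retinal back to retinol, 8.69-fold higher.

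Cytokines, chemokines and their receptors were higher in 28 of 40 cases tested (46 listed), lower in 3 and not called in 9, with a median of 1.71 (1.09 with dim values raised); 8 of the 40 passed only through spinal cord and 2 only through brain arrays. Cxcl3, a chemokine for neutrophils, was 6.50, 6.13 and 5.55 in brain and 12.25, 12.28 and 11.97 in spinal cord, at least 55.4-fold higher. Cxcl12, which connective tissue and meninges make for cells with the receptor Cxcr4, was 8.78, 8.98 and 9.03 in brain and 13.57, 13.42 and 13.19 in spinal cord, 22-fold higher (log2 difference 4.46, SE 0.35, adjusted p = 2.29e-07). Each was separated without overlap. Cxcl13, a chemokine for B cells, was at least 15.8-fold, Cxcl16 6.57-fold and Il1r1, the interleukin 1 receptor, 6.06-fold higher. The 3 that were lower were Cntf, a neurotrophic cytokine of glia (log2 difference -1.74), Cxcl14 (-2.19) and Cxcr4 (-1.26).

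Many promoters of this family are known for sites of NF-kappaB, the factor that inflammatory signals bring to the nucleus. The known consensus of 10 bases, searched on both strands of 300-base RefSeq promoters (build GRCr8, 250 bases before to 50 after the gene start), was in 7 of 21 promoters found for genes of the list that were higher (33.3%), in 10 of 29 for those tested (34.5%), and in 869 of 8766 for genes tested on the arrays (9.91%). Of all 33469 promoters in the table, 2515 held it (7.51%). The 150 bases before the gene start follow for 4 of these 7, 5' to 3' on the gene's strand, with the motif in capitals; adjoining matches are joined. They were chosen after their values were seen and show where the motif lies.
Cxcl1, chr14:17479322-17479471, minus strand: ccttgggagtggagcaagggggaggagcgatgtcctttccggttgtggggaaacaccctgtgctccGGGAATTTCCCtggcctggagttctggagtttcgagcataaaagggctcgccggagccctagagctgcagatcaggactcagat
Cxcl2, chr14:17467256-17467405, minus strand: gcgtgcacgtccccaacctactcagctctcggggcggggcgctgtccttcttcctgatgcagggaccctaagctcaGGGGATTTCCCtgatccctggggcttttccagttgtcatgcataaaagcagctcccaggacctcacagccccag
Ccl20, chr9:91837009-91837158, plus strand: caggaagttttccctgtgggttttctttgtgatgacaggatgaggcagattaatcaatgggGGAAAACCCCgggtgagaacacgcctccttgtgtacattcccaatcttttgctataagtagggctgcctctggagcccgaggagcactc
Il6, chr4:5894576-5894725, minus strand: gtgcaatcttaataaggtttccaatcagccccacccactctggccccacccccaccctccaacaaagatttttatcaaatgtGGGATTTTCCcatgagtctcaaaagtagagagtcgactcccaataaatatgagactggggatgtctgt
The motif began 84 bases before the gene start in Cxcl1, 74 in Cxcl2, 89 in Ccl20 and 68 in Il6. A match describes these letters and is neither a site nor a cause. Cxcl1, a neutrophil chemokine, was 12.25, 12 and 12.04 on brain arrays and 13.89, 13.89 and 13.78 on spinal cord arrays, 3.37-fold higher. Ccl20 was 11.73, 11.87 and 11.72 in brain and 14.13, 13.85 and 13.99 in spinal cord, 4.66-fold higher, and Cxcl2 7.76, 7.60 and 7.55 in brain and 9.49, 9.14 and 9.01 in spinal cord, 2.98-fold higher. Il6 was dim on every brain array and 7.27, 7.19 and 7.29 on spinal cord arrays, at least 1.94-fold higher; with dim values raised it was not called (adjusted p = 0.221). Cxcl1 and Ccl20 were bright in both tissues, and none of the 4 overlapped between them.

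Complement and acute phase genes were higher in 14 of 16 cases tested (27 listed), with 0 lower and a median of 2.59; 7 of the 16 passed only through spinal cord arrays. Serping1, the inhibitor of the first complement enzymes, was 10.81, 10.60 and 10.94 in brain and 14.11, 13.93 and 13.88 in spinal cord, 9.13-fold higher. C6, of the membrane attack complex, was at least 5.69-fold higher. Haptoglobin (Hp), which binds free haemoglobin, was 4.16, 5.25 and 3.77 in brain and 12.52, 12.44 and 12.12 in spinal cord, at least 66.8-fold higher, and Steap4, a metalloreductase, 21.8-fold higher. The acute phase gene A2m was 12.87, 12.95 and 12.96 in brain and 12.57, 12.63 and 12.34 in spinal cord and was not called (adjusted p = 0.308; 0.00219 with the 6 differentiated arrays fitted alone). Of interferon-induced genes 9 were higher, 3 lower and 20 not called of 32 tested (38 listed, 1 passing only through brain arrays), with a median of 0.13. Isg15, a ubiquitin-like protein, was 13.08, 12.27 and 12.29 in brain and 12.64, 12.74 and 12.55 in spinal cord with overlap (adjusted p = 0.858). Antigen processing genes were higher in 5 of 8 cases and lower in 0. Antiviral genes had 2 higher and 3 lower, with Mx2 2.46-fold and Rsad2, viperin, 2.30-fold lower, and Bst2, tetherin, 2.23-fold higher. The calls for Rsad2 and Bst2 were each lost without any 1 of 5 arrays (adjusted p = 0.0531 to 0.0764 and 0.0737 to 0.134). A second probe set of Mx2 was not called (adjusted p = 0.0749). The higher count of 9 was 5 without brain replicate 2 or without brain replicate 3, and 14 with the 6 differentiated arrays fitted alone.

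The medians of 7 metabolic lists lay between -0.21 and 0.26, and that of transmitter handling was -0.99. Genes for glutamate, GABA, glycine and creatine handling were lower in 14 of 20 cases tested (22 listed) and higher in 3, with 1 passing only through spinal cord and 1 only through brain arrays. Slc38a3, a glutamine transporter of astrocytes, was 9.85, 9.54 and 9.64 in brain and 5.72, 3.70 and 5.44 in spinal cord, at least 10.7-fold lower. Gldc, which breaks down glycine, was 10.25, 10.14 and 10.11 in brain and 7.60, 7.50 and 6.97 in spinal cord, 7-fold lower, and Ckb, brain creatine kinase, 4.36-fold lower. Glul, glutamine synthetase, was 13.42, 13.32 and 13.34 in brain and 13.02, 13 and 13.08 in spinal cord and was not called (adjusted p = 0.104; 0.0429 after quantile normalization and 0.00225 with the 6 differentiated arrays fitted alone).

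Glycolysis had 8 genes higher, 5 lower and 9 not called of 22 tested (25 listed), and a median of -0.01, which became 0.01 after median centring or quantile normalization. Aldoc, the aldolase of brain, was 12.65, 12.66 and 12.61 in brain and 10.53, 10.46 and 10.51 in spinal cord (4.40-fold lower), while Aldoa, of muscle and most tissues, was higher by a log2 difference of 0.41 (SE 0.11). Ldhb, the lactate dehydrogenase subunit of oxidative tissues, was 13.34, 13.10 and 13.12 in brain and 11.90, 12.04 and 11.73 in spinal cord (2.46-fold lower), and Ldha higher by 0.46 (SE 0.10). Pfkfb3, which makes an activator of glycolysis, was 5.68-fold lower, and the lactate exporter Slc16a3 (MCT4) 5.63, 5.40 and 4.51 in brain and 8.66, 8.68 and 8.50 in spinal cord, at least 4.98-fold higher. Oxidative phosphorylation subunits were higher in 15 of 46 cases tested (59 listed) and lower in 2, with a median of 0.17 and, with 1 probe set per gene, no called difference above the 1.44-fold of Uqcrh. A second probe set of Sdhd, a subunit of succinate dehydrogenase, was 1.52-fold higher (adjusted p = 0.00589). Ribosomal proteins were higher in 13 of 27 cases tested (51 listed) with 0 lower, a median of 0.26 and, again with 1 probe set per gene, a largest called difference of 1.36-fold for Rpl22. Both counts moved with single arrays: without 1 array at a time the former ran from 7 (without brain replicate 2, brain replicate 3 or spinal cord replicate 1) to 16, and was 8 without spinal cord replicate 2. The latter was 6 without spinal cord replicate 1, 7 without brain replicate 3, 8 without brain replicate 2 and 23 without spinal cord replicate 3. After median centring the counts were 8 and 5. The medians of the 2 lists were 0.19 and 0.28 after median centring, and 0.08 and 0.12 after quantile normalization.

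**Figure D5:**
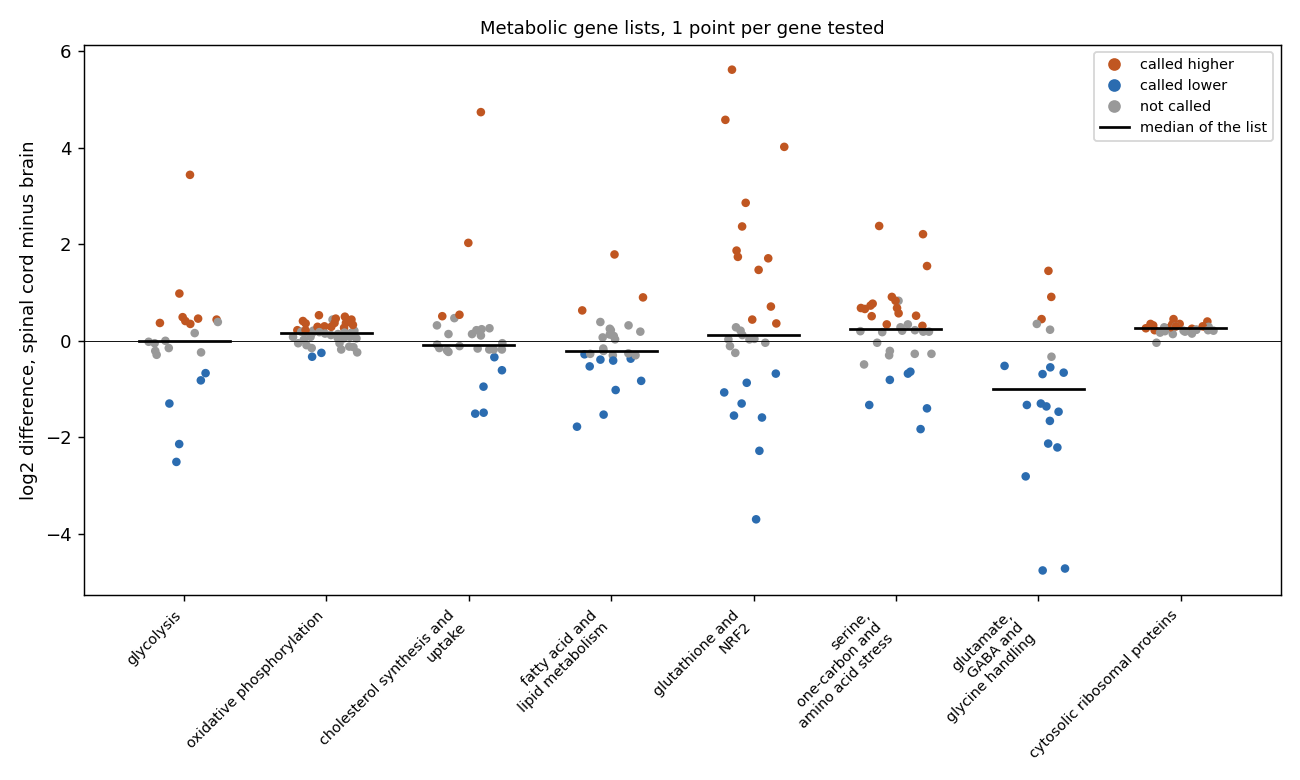
Log2 difference, spinal cord minus brain (vertical axis), of each gene tested in 8 metabolic lists. Orange points were called higher, blue lower and grey not called, and black bars are list medians, which lie between -0.21 and 0.26 except for transmitter handling at -0.99; points are spread sideways for legibility.

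Cholesterol genes had 4 higher, 5 lower and 18 not called of 27 tested (32 listed, 1 passing only through spinal cord arrays). Ebp, a sterol isomerase, was 8.29, 8.20 and 8.08 in brain and 10.25, 10.23 and 10.16 in spinal cord, 4.08-fold higher, while 13 of 17 synthesis genes were not called. Srebf1, the factor of lipid synthesis, was 2.81-fold lower, Apoe, the lipid carrier of astrocytes, 14.21, 13.68 and 13.90 in brain and 12.53, 12.53 and 12.21 in spinal cord (2.84-fold lower), and Mylip, which marks the LDL receptor for breakdown, at least 14.3-fold higher. Fatty acid genes were lower in 9 and higher in 3 of 27 cases tested (32 listed, 2 passing only through spinal cord arrays). The desaturases Fads1 and Fads2, which make polyunsaturated fatty acids, were 2.88-fold and 3.44-fold lower; Fads2 was 10.69, 10.41 and 10.66 in brain and 8.85, 8.95 and 8.61 in spinal cord. Glutathione and NRF2 genes went both ways, 12 higher and 8 lower of 29 tested (34 listed, 2 passing only through spinal cord arrays). Aox1, aldehyde oxidase, was 6.65, 6.95 and 7.09 in brain and 10.94, 10.95 and 10.87 in spinal cord, 16.3-fold higher, and Akr1b8, an aldo-keto reductase, at least 18.7-fold higher. Gstm2, a glutathione transferase, was at least 14.5-fold and Sod3, the secreted superoxide dismutase, 5.18-fold higher. The NRF2 target Nqo1 was lower, by a log2 difference of -1.07 (SE 0.25).

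Serine, folate and amino acid stress genes had 15 higher, 6 lower and 15 not called of 36 listed and tested. The serine synthesis enzymes Phgdh and Psat1 were 2.63-fold and 2.52-fold lower, Phgdh at 11.70, 11.67 and 11.61 in brain and 10.25, 10.34 and 10.20 in spinal cord. Aldh1l2, a mitochondrial folate enzyme, was 4.64-fold higher. Amino acid carriers differed in opposite directions: Slc1a5, which carries neutral amino acids such as glutamine, was 7.79, 7.37 and 7.98 in brain and 9.95, 10.32 and 10.01 in spinal cord (5.21-fold higher), and Slc7a5, which carries large neutral ones, 10.91, 10.75 and 10.92 in brain and 9.05, 9.06 and 8.98 in spinal cord (3.56-fold lower). Unfolded protein response genes were higher in 7 of 12 cases and lower in 0. Pdia4, a disulphide isomerase named after its value was seen, was 11.14, 10.97 and 11.05 in brain and 12.13, 11.98 and 11.78 in spinal cord (log2 difference 0.91, SE 0.12).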

How the data were processed

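Neural stem cell cultures were measured on 12 Affymetrix Rat230_2 arrays, 3 in each of 4 groups. The authors deposited log2 signals per probe set, for which MAS5 and affy are named, per the submitters' processing notes, without versions; the 2% trimmed mean of linear values is 500 on each array. The number of arrays limits the precision. No source used here names a genome build for the probe sets.

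Of 31042 probe sets that are not controls, the 20834 above their array's 40th percentile on at least 3 of 12 arrays were tested with limma 3.58.1 (R 4.3.3, Python 3.11.15): lmFit on 4 group means and eBayes with a trend, 8 residual degrees of freedom, Benjamini-Hochberg adjustment over all probe sets tested, threshold 0.05. The code of the fit was run on simulated data with normal noise and the same spread in all groups. These settings differ from dim values, which spread widely, so the run bears on the code only. Each gene was represented by its probe set of highest mean signal across the 12 arrays. Some named genes, among them Fut4, Dcx, Tubb3, Olig2 and Apoe, had a further probe set that was dim in both groups and not tested. Of 31042 probe sets 20826 had 1 gene symbol, 436 several and 9780 none; 20758 were matched by Entrez ID to RefSeq (GRCr8).

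Named by rule were the 12 genes with the largest difference in each direction that were called without overlap (dim values raised), the 5 such members called in each list, cell type markers and members not called. Meis1, Hoxa10, Hoxd10, Sfrp1, Thy1, Gja1, Fut4, Tead2, Slc17a6, Sst, Vcan, Mmp15, Id1, Id2, Jag1, Axin2, Cntf, Cxcl14, Cxcr4, Cxcl1, Cxcl2, Ccl20, Il6, Aldoa, Ldha, Nqo1 and Pdia4 were named after their values were seen. The comparison and the gene lists were chosen with earlier results of these data known. Alternatives covered scaling, filter, pseudocount, floor, arrays in the fit, trend, replicate block, single arrays left out and choice of probe set. The 6 proliferative arrays entered the filter, the choice of probe set, the estimate of the spread and the comparison of states in the closing section.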

Additional observations from a re-analysis of the deposited data

Results flagged for a closer look

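For 9 of the 24 genes with the largest differences, those not dim as a group in any of the 4 groups, the difference between tissues could be set against the same difference in proliferative cultures. In all 9 the tissue difference differed between the states by the interaction term of the limma fit. Among the genes left out, each dim in some group, the term was called for all but Col8a1, Pcolce, Lhx2 and Aldh1a1. Their differences between states were 0.85, 0.45, -2.35 and -1.19 (adjusted p = 0.422, 0.675, 0.0946 and 0.409). The share of all genes called by this term was not computed, so the count of 9 has no background beside it. The genes were chosen for their size in differentiated cultures, so the interaction is not independent of that choice.

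Col1a1 had a tissue difference of 7.22 in differentiated and 4.60 in proliferative cultures, a difference between states of 2.62 (SE 0.46, adjusted p = 0.000498). That of Col3a1 was 7.17 and 5.89, or 1.28 between states (adjusted p = 0.00632). Rlbp1 was lower in differentiated spinal cord cultures (-5.61) and higher in proliferative ones (2.73), a difference of -8.34 (SE 0.47, adjusted p = 3.04e-08). Of its differentiated spinal cord arrays 2 were dim, so these sizes are not reliable; with dim values raised the differentiated difference was -4.97. Cspg5 likewise was -3.74 and 0.77, a difference of -4.51 (SE 0.33, adjusted p = 2.55e-07). Crym was -3.95 and -0.50 (difference -3.45), and Sfxn5 -3.81 and -0.39 (difference -3.42), where the proliferative value of Sfxn5 was not called (adjusted p = 0.0629). Ncan was -4.10 and -1.39 (difference -2.71), Frmpd1 -3.79 and -1.21 (difference -2.58) and Mt3 -3.70 and -1.60 (difference -2.09). Of Col1a1 2 of 12 arrays were dim, and of Frmpd1 1 array. Groups of 3 arrays were not tested for outliers.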

How the results depend on the processing

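The counts of probe sets kept within 1.5 times of 3856 higher and 4761 lower under each alternative run. With the replicate block they were 3682 and 4514. The labels do not say whether the replicate numbers pair the arrays. Deviations of same-numbered arrays from their group means correlated at 0.03, -0.08 and 0.05, which with 3 arrays per group cannot settle it. Brain replicate 3 correlated best with spinal cord replicate 3, and brain replicates 1 and 2 with another number. The block moved no list count by over 1.5 times and changed no call of a named gene. With the 6 differentiated arrays fitted alone, counts were 10 lower for mature oligodendrocytes and 6, 15 and 14 higher for mitosis, DNA replication and interferon genes. Under the stricter filter, at the 60th percentile, which tests fewer genes, they were 5 lower for ependymal genes and 1, 7 and 12 higher for endothelial, microglial and TGF-beta and BMP genes. Higher counts for oxidative phosphorylation and ribosomal proteins were 8 and 5 after median centring, and for ribosomal proteins 6 after quantile normalization. Without a trend in eBayes they were 9 and 8. Epcam reversed, to -0.04, with dim values raised. Other causes were not tested.

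Without 1 array at a time, counts ran from 3247 to 3466 (probe sets higher), 3903 to 4365 (lower), 2 to 4 (Hox cofactors), 1 to 3 (mitosis), 5 to 8 (interferon), 7 to 16 (oxidative phosphorylation) and 6 to 23 (ribosomal proteins). Of 236 named genes called, 213 kept the call under every alternative run, 18 lost it without at least 1 array and 13 under another alternative; 8 not called were called under at least 1. Differences below the 40th percentile of an array could not be measured.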
